A study of Mus musculus with 6 samples.

Results

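The 6 genes described here, mt-Co1, mt-Co2, mt-Co3, mt-Cytb, mt-Atp6 and mt-Atp8, are the protein-coding genes of the mitochondrial genome that do not belong to complex I, and they were taken by name as 6 of the 19060 genes in the deposited count table. They were chosen with their difference between the genotypes already known, so that difference is described and not tested. RNA was measured by bulk RNA sequencing in the proximal end of the mouse incisor, where the stem cells of this continuously growing tooth reside. The 3 control samples came from Fgfr1fl/fl mice (tagged as wild type in the labels) and the 3 mutant samples from Gli1-Cre;Fgfr1fl/fl mice (named Gli1CreER;Fgfr1fl/fl in the study), in which a tamoxifen-inducible Cre under Gli1 removes the FGF receptor Fgfr1. Both groups carried the floxed allele, were 1 month old by their labels, and were collected 1 week after tamoxifen. Cre acts only in Gli1-expressing cells and their progeny, so the mutant tissue also contained cells that kept Fgfr1, and a whole-tissue value cannot tell fewer cells of a type apart from less RNA per cell.

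The libraries differed in depth by genotype. Controls held 32292649, 31060222 and 32712448 estimated counts, and mutants held 5276557, 11819576 and 11358282. In the mutants 27.3%, 14.5% and 17.0% of the genes were listed at 0, against 2.44%, 2.18% and 2.34% in the controls. Depth and genotype cannot be told apart, and the labels name no sequencing run. The library codes in the sample names end in S1, S2 and S3 for the controls and S2, S3 and S4 for the mutants, so S2 and S3 occur in both groups. The labels also do not say whether each sample was 1 animal, so p-values below measure the spread among these samples. Levels are given as counts per 1000000 (CPM) of a library size scaled by its upper quartile, and the lowest count for any of the 6 genes in any sample was 878, for mt-Atp8 in control 2, so counting error was small beside the differences between samples.

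Fgfr1 (chr8:25513654-25575718, plus strand, mm10) was at 529, 924 and 434 CPM in the controls and at 148, 318 and 262 CPM in the mutants. Every mutant was below every control, as was the case for 16.3% of the genes tested. The log2 change was -1.37 ± 0.40 (SE, n = 3 per group), with an edgeR quasi-likelihood p of 0.00846 and an adjusted p of 0.0881, so it passed the rule of p below 0.05 with over 1.5-fold change but not the threshold of 0.05 on the adjusted p, whereas DESeq2 called it lower with a log2 change of -1.41. The count covers the whole gene and not the deleted exons alone. Genes of both tooth compartments were abundant in every library. Col1a1, the collagen of dentin and bone, led the odontoblast list at 16455 to 50909 CPM, and Amelx, the main enamel matrix protein, led the enamel epithelium list at 15184 to 66940 CPM.

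Mitochondria make most of the ATP of a resting cell by passing electrons along respiratory complexes and using the resulting proton gradient. Cytochrome c oxidase (complex IV) has a catalytic core of 3 subunits, encoded by mt-Co1, mt-Co2 and mt-Co3, and cytochrome b, encoded by mt-Cytb, is the only subunit of complex III made in the mitochondrion. ATP synthase (complex V) takes its proton channel subunit a from mt-Atp6 and the small subunit 8 from mt-Atp8. All other subunits of these complexes are encoded in the nucleus, and the mitochondrial genes are transcribed together on long polycistronic RNAs that are cut apart mainly at the tRNAs between them.

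In the GENCODE annotation on the same build, all 6 genes are single exons on the plus strand of the mitochondrial chromosome. mt-Co1 occupies chrM:5328-6872 (1545 bases), mt-Co2 chrM:7013-7696 (684 bases), mt-Atp8 chrM:7766-7969 (204 bases), mt-Atp6 chrM:7927-8607 (681 bases), mt-Co3 chrM:8607-9390 (784 bases) and mt-Cytb chrM:14145-15288 (1144 bases). mt-Atp8 and mt-Atp6 share 43 bases read in different frames, mt-Atp6 and mt-Co3 share 1 base, and no tRNA separates these 3 genes. mt-Co3 and mt-Cytb end on a lone T of a stop codon, which polyadenylation is known to complete. The sequence of mt-Atp8 is shown because it is the member whose level stood apart from the others, with the bases it shares with mt-Atp6 in capitals:
mt-Atp8: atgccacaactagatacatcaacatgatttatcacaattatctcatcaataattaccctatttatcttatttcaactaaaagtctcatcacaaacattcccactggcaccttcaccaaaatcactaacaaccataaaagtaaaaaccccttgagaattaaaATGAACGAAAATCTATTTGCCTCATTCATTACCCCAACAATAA

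Parts of the mitochondrial genome are also present as copies in the nucleus, and this bears on what each count holds. A block of annotated pseudogenes on the minus strand of chromosome 1 (chr1:24611535-24616197, 4663 bases) carries Gm28661, which equals mt-Co2 over 681 bases, Gm28437, which equals mt-Co3 over 783 bases, and Gm10925, which equals mt-Atp6 over 678 bases, each with 0 mismatches. Gm29216 in the same block matches the last 483 bases of mt-Co1 with 1 difference, A1066T, counted from the first base of mt-Co1. The stretch around that base is shown at 1 read length, 75 bases, because a read of mt-Co1 lying within these 483 bases could be told from the nuclear copy only if it covered that position, in capitals:
mt-Co1: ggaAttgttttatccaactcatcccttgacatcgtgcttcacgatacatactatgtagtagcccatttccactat
Gm29216: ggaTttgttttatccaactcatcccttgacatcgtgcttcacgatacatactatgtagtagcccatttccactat

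The mt-Co1 stretch lies at chrM:6390-6464 on the plus strand and the Gm29216 stretch at chr1:24616114-24616188 on the minus strand. Chromosome 2 carries less similar copies, Gm13340 of mt-Co1 (97.6% identical) and Gm13341 of mt-Co2 (95.9% identical). Of all 75-base windows of each gene, 99.9% of those in mt-Co3, 99.5% of those in mt-Co2, 99.5% of those in mt-Atp6 and 39.8% of those in mt-Co1 occurred without a mismatch in another annotated transcript. For mt-Cytb and mt-Atp8 the share was 0%. The annotated nuclear block leaves a gap of 233 bases between Gm10925 and Gm28661, as long as the mitochondrial stretch of 233 bases between the copied parts of mt-Co2 and mt-Atp6, and 161 bases of mt-Atp8 lie in that mitochondrial stretch. The nuclear sequence of the gap was not read here.

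Each of the 6 genes was higher in every mutant than in every control. This held for 14.1% of the 15826 genes tested, and nothing is read from it for genes chosen by this contrast. At an adjusted p below 0.05, 6.79% of the genes tested were called, 3.72% higher and 3.06% lower in the mutants, and by p below 0.05 with over 1.5-fold change 19.8% were, 10.9% higher and 8.92% lower. The split of 589 higher and 485 lower depended on the scaling, with 466 higher and 671 lower when total counts alone were used. The median log2 change of the 6 was 3.15, against -0.04 over all genes tested. For 5 of them the mean CPM in mutants was 7.35 to 10.2 times that in controls, and for mt-Atp8 it was 128 times.

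**Figure D1:**
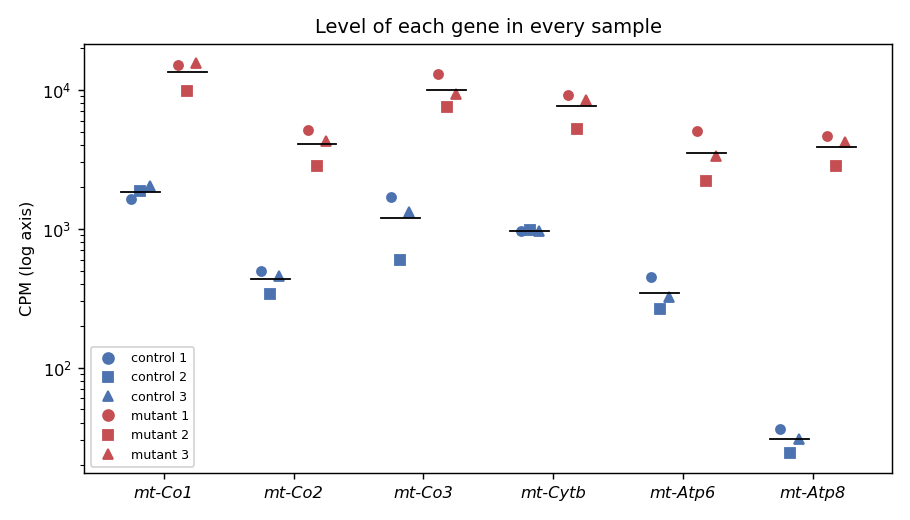
Level of the 6 genes in CPM (log axis) in each of 3 control (blue) and 3 mutant (red) samples, with black lines at the group means. For every gene the mutant points lie above the control points, mutant 2 is the lowest mutant, and mt-Atp8 shows the widest gap between the groups.

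Among the complex IV core genes, mt-Co1, which carries the haem and copper site that reduces oxygen, was at 1624, 1855 and 2014 CPM in the controls and at 15192, 9745 and 15467 CPM in the mutants. Its control values lay close together, and mutant 2 was well below the other mutants. The fitted log2 change was 2.88 ± 0.44 (SE).

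mt-Co2, which accepts electrons from cytochrome c, was at 494, 341 and 458 CPM in the controls and at 5130, 2837 and 4262 CPM in the mutants. Control 2 was the lowest control and mutant 2 the lowest mutant. The log2 change was 3.24 ± 0.39 (SE).

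mt-Co3, the third core subunit, was at 1678, 600 and 1312 CPM in the controls and at 13099, 7473 and 9300 CPM in the mutants. It was the most variable of the 6, with a within-group SD of 0.62 on the log2 scale against a median of 0.39 over the 6 genes, and control 2 was the sample that stood lowest. The log2 change was 3.06 ± 0.53 (SE).

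mt-Cytb, the complex III member, gave 960, 982 and 957 CPM in the controls, the closest agreement of any member within a group, and 9212, 5252 and 8513 CPM in the mutants. Its log2 change was 2.99 ± 0.40 (SE). mt-Cytb has no 75-base window in common with another annotated transcript, so no read of that length from it could be placed without a mismatch on such a copy.

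For ATP synthase, mt-Atp6 was at 451, 266 and 321 CPM in the controls and at 5029, 2222 and 3348 CPM in the mutants, with a log2 change of 3.35 ± 0.44 (SE). mt-Atp8 was at 36.3, 24.1 and 30.9 CPM in the controls and at 4671, 2837 and 4183 CPM in the mutants, with a log2 change of 7.0 ± 0.44 (SE). In each control mt-Atp8 was the lowest of the 6 by a wide margin, whereas in mutants 2 and 3 it was above mt-Atp6, the gene it overlaps. Its spread within groups, an SD of 0.34 on the log2 scale, was near those of mt-Co1 (0.29), mt-Cytb (0.31) and mt-Co2 (0.37). It was below those of mt-Atp6 (0.50) and mt-Co3 (0.62).

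Levels of different genes were compared per kilobase of transcript. In the controls mt-Co3 averaged 1527 ± 699 CPM per kilobase (SD, n = 3), mt-Co1 1185 ± 127, mt-Cytb 845 ± 11.7, mt-Co2 630 ± 117, mt-Atp6 508 ± 139 and mt-Atp8 149 ± 30.0. Within every control mt-Co1 was above mt-Cytb, mt-Cytb above mt-Co2, mt-Co2 above mt-Atp6 and mt-Atp8 lowest. The place of mt-Co3 was not resolved, because control 2 had it at 766 CPM per kilobase, below mt-Co1 and mt-Cytb, and the ranges of mt-Co2 and mt-Atp6 over the controls overlapped. In the mutants mt-Atp8 averaged 19104 ± 4656 CPM per kilobase, mt-Co3 12701 ± 3661, mt-Co1 8717 ± 2089, mt-Cytb 6695 ± 1848, mt-Co2 5959 ± 1692 and mt-Atp6 5188 ± 2074. The group ranges of neighbours in this order overlapped, but within each of the 3 mutants mt-Atp8 was the highest. The other 5 genes, without their copies, had the same order of means in both groups.

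Within the pool of counts, the share of mt-Atp8 varied little within groups. It made up 0.693%, 0.593% and 0.607% of the counts of the 6 genes in the controls and 8.93%, 9.34% and 9.28% in the mutants. mt-Co2 made up 9.43%, 8.39% and 8.99% in the controls and 9.80%, 9.34% and 9.46% in the mutants, and these ranges overlapped. mt-Co1 took the largest share in 5 of the 6 samples, from 29.0% in mutant 1 to 45.6% in control 2, and mt-Co3 took 32.0% in control 1, where it exceeded mt-Co1, and only 14.8% in control 2. Per kilobase, mt-Atp8 was 0.269, 0.302 and 0.321 times mt-Atp6 in the controls and 3.10, 4.26 and 4.17 times mt-Atp6 in the mutants.

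**Figure D2:**
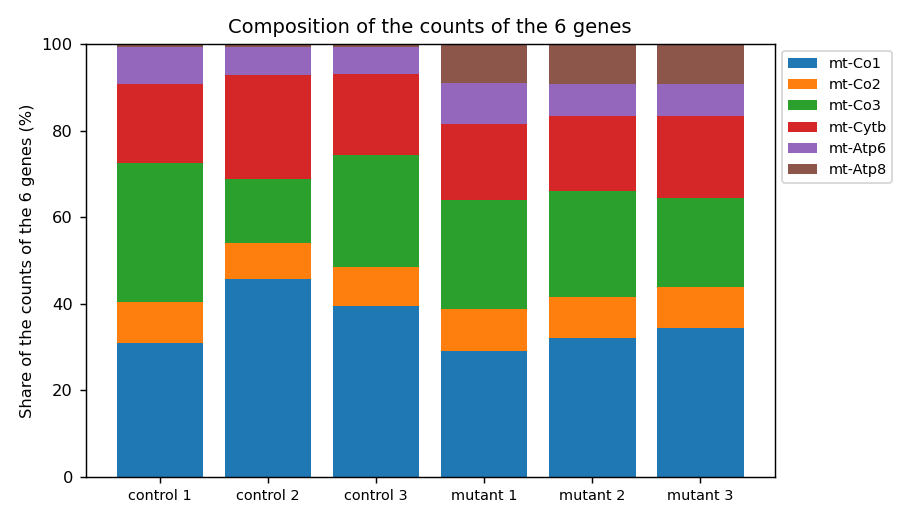
Share of each gene in the summed counts of the 6 genes (percent) in each sample. mt-Atp8, the top segment, is a sliver of under 1% in the controls and 8.93% to 9.34% in the mutants, while the shares of each of the other 5 genes overlap between the groups.

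As a share of all counts, the 6 genes took 0.558%, 0.477% and 0.539% in the controls and 4.54%, 3.01% and 3.94% in the mutants. The nuclear copies of these genes took a further 0.331%, 0.184% and 0.266% in the controls and 2.20%, 1.36% and 1.63% in the mutants. Genes and copies together therefore accounted for 6.75%, 4.37% and 5.57% of the mutant libraries, and the 6 columns alone understate the counts that fell on these sequences.

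For the copies identical to mt-Co3, mt-Co2 and mt-Atp6, the split hardly varied. Gm28437 took 49.98% to 50.02% of the joint counts of mt-Co3 and Gm28437 over the 6 samples. Gm28661 took between 54.8% and 55.1% of the joint counts with mt-Co2, and Gm10925 between 53.4% and 54.9% of those with mt-Atp6. The level of these copies thus followed their genes, with log2 changes of 3.06 for Gm28437, 3.25 for Gm28661 and 3.36 for Gm10925.

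Gm29216, the copy of the end of mt-Co1, went the other way. It was at 319, 230 and 262 CPM in the controls and at 103, 0.971 and 0.852 CPM in the mutants, which is 16.4%, 11.03% and 11.5% of the joint counts with mt-Co1 in the controls and 0.675%, 0.00996% and 0.00551% in the mutants. Mutant 1 stood far above the other 2 mutants, whose values rest on 11 and 8 counts. The log2 change was -2.98 ± 1.51 (SE) and was not called (edgeR adjusted p of 0.328). The chromosome 2 copies were near 0 in the controls: Gm13340 was at 0.391, 0.670 and 0.512 CPM there and at 78.9, 53.2 and 113 CPM in the mutants, and Gm13341 at 0.0946, 0.120 and 0.0631 CPM against 14.5, 9.95 and 11.3 CPM.

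**Figure D3:**
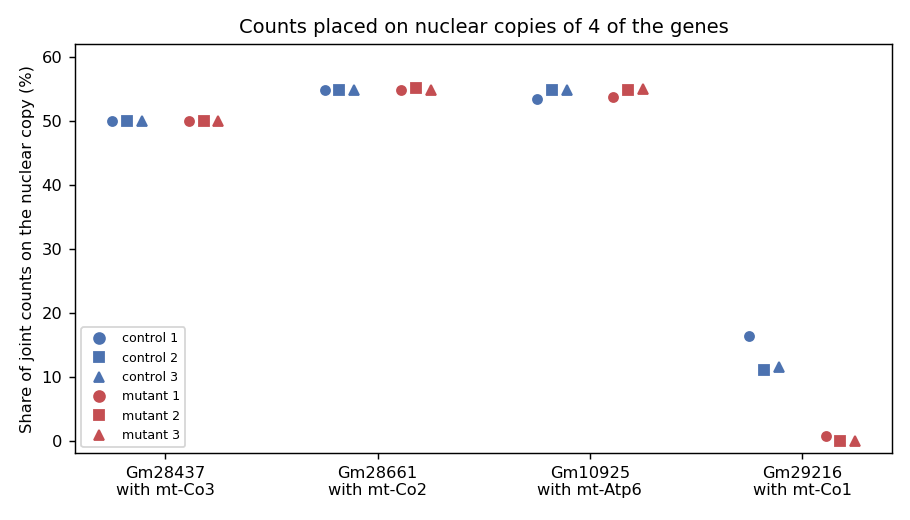
Share of the joint counts of a gene and its chromosome 1 copy that were placed on the copy (percent), in 3 control (blue) and 3 mutant (red) samples. The copies of mt-Co3, mt-Co2 and mt-Atp6 sit at 49.98% to 55.1% in all samples, and the copy of the end of mt-Co1 falls from 11.03% to 16.4% in controls to under 1% in mutants.

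Adding each gene's copies to it, a calculation chosen after the values were seen, left the ratios of mean CPM near those of the genes alone. The ratio of mutants to controls became 6.46 for mt-Co1, 9.49 for mt-Co2, 8.32 for mt-Co3 and 10.2 for mt-Atp6. The order per kilobase did change. With its copy, mt-Co3 averaged 25397 ± 7315 CPM per kilobase in the mutants (SD, n = 3) and was above mt-Atp8 in each of them. That order of mt-Co3 and mt-Atp8 rests on division by full length, and whether it holds per possible read position was not tested. mt-Co1 with its copies averaged 1361 ± 108 CPM per kilobase in the controls, above the 1110 ± 284 of mt-Atp6 with its copy. In control 1, however, it was below mt-Atp6 (1258 against 1422). In the mutants it averaged 8793 ± 2123, below the 11369 ± 4386 of mt-Atp6, and was below it in each sample. The shared order of the means of the 5 genes therefore did not hold with copies added. With Gm10925 included, mt-Atp8 was 0.125, 0.137 and 0.145 times mt-Atp6 per kilobase in the controls and 1.43, 1.92 and 1.88 times in the mutants. Since Gm10925 took a near-constant share in all samples, this scaled both groups alike.

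The other genes of the mitochondrial genome were also higher in the mutants. All 7 complex I genes were called at an adjusted p below 0.05 (edgeR), against 3.72% of the genes tested that were called higher, with log2 changes from 2.78 for mt-Nd5 to 4.13 for mt-Nd4l. Their median of 3.42 was near the 3.15 of the 6 genes, and none came close to the 7.0 of mt-Atp8. The ribosomal RNA genes had log2 changes of 3.07 (mt-Rnr1) and 2.15 (mt-Rnr2), both called, although mt-Rnr2 was not with no filter on low counts. Leaving out 1 sample left between 3 (without control 3) and 7 of the complex I genes called, mt-Rnr1 was called in 4 of these 6 fits and mt-Rnr2 in 1 (without control 2), and with length and GC content corrected for none was.

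The nuclear partners of the 6 genes moved less. Of 42 nuclear subunits of complexes III, IV and V, 10 were called higher and 0 lower at an adjusted p below 0.05, and 27 were higher by the rule of p below 0.05 with over 1.5-fold change, which 10.9% of all genes passed upwards. Their median log2 change was 1.20. The genes named next had the smallest p in each complex. In complex IV, Cox6c rose from 157, 79.4 and 143 CPM to 629, 499 and 654 CPM, and Ndufa4 had a log2 change of 1.95. In complex III Uqcrb (log2 change 1.99) and Uqcr10 (1.69) rose, and in ATP synthase Atp5l (2.38) and Atp5k (1.87), all at adjusted p values of 0.0139 to 0.0424. The catalytic beta subunit Atp5b, the most abundant nuclear ATP synthase gene, had a log2 change of -0.19 ± 0.27 (SE, adjusted p of 0.778). The count of 10 fell to between 0 and 3 when any 1 sample was left out, and to 1 with the correction for length and GC content, when the median was 0.09. Cox6c, Uqcrb and Atp5l each kept their call in 3 of the 6 fits with 1 sample left out, and Ndufa4, Uqcr10 and Atp5k in 0.

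Relative to these partners the 6 genes were also higher in the mutants. Per 100 counts of the nuclear subunits of complexes III to V there were 52.8, 73.4 and 54.4 counts of the 6 genes in the controls and 295, 223 and 262 in the mutants. The groups did not overlap, and nothing is read from that for genes chosen with their rise already known. Control 2, the highest control, was also the control with the lowest summed nuclear subunits, 5540 CPM against 9930 and 9361 CPM.

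Of 28 genes for mitochondrial transcription and RNA handling, 1 was called, a share near the 3.72% called higher among all genes tested. This was Slirp, an RNA-binding partner of Lrpprc in stabilising mitochondrial mRNAs, which had a log2 change of 1.52 ± 0.31 (SE, edgeR adjusted p of 0.0445). Tfam, which packages mitochondrial DNA and starts its transcription, was at 29.2, 20.0 and 25.9 CPM in the controls and 43.7, 43.9 and 50.7 CPM in the mutants, a log2 change of 0.88 that passed only the rule without adjustment (adjusted p of 0.109). Fastkd1, a member of a family of mitochondrial RNA-binding proteins, was at 4.81, 3.71 and 6.53 CPM in the controls and at 0.655, 0.171 and 0 CPM in the mutants, where no library held more than 3 counts. It was lower by the rule without adjustment (adjusted p of 0.121). Lrpprc, looked up after its values were seen, was at 29.2, 31.5 and 36.3 CPM in the controls and 16.4, 19.1 and 23.7 CPM in the mutants (log2 change -0.71, adjusted p of 0.251). The median of the list was 0.22. Ssbp1, the mitochondrial single-stranded DNA-binding protein, was the 1 gene called among 11 of mitochondrial DNA replication (log2 change 1.45, adjusted p of 0.0464), where the median was -0.11. With 1 sample left out, Slirp kept its call in 1 of 6 fits, the one without mutant 1, and Ssbp1 in 0.

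In the remaining lists 0 to 2 genes were called by edgeR, against 3.72% higher and 3.06% lower among all genes tested. Of the 15826 genes tested, DESeq2 called 1109 higher and 500 lower. By p below 0.05 with over 1.5-fold change, 10.9% were higher and 8.92% lower. Nothing is read from list counts this small. Among 19 complex IV assembly factors, Cox17, a copper carrier, (log2 change 1.64) and Coa6 (1.90) rose at an edgeR adjusted p of 0.0464. DESeq2 called 4 of these 19 higher. None of 9 factors for complexes III and V was called by edgeR, whereas DESeq2 called 3 higher. By edgeR 3 of the 9 passed the rule without adjustment. Of these, Tmem70 had the smallest p (log2 change 1.19, adjusted p of 0.0506) and Uqcc2 was next (1.60, adjusted p of 0.0718). Of 8 biogenesis regulators, 1 was called, Ppargc1b, a coactivator of mitochondrial genes. It was at 2.88, 4.78 and 3.55 CPM in the controls and listed at 0 in all 3 mutants, where 3 counts would have been 0.655, 0.256 and 0.302 CPM. Of 12 genes that track mitochondrial mass, edgeR called 1, the chaperonin Hspe1 (log2 change 1.97, adjusted p of 0.0445), and DESeq2 called 3 higher. Of the 12, 9 had a positive log2 change, and by the rule without adjustment 4 were higher and 1 lower. The lower gene was citrate synthase, Cs, at 173, 219 and 242 CPM in the controls and 137, 119 and 162 CPM in the mutants (log2 change -0.60, edgeR adjusted p of 0.212). With 1 sample left out, Cox17 and Ppargc1b kept their calls in 1 of 6 fits (without mutant 1), Hspe1 in 1 (without control 2) and Coa6 in 0. With no filter on low counts, and with the correction for length and GC content, none of Slirp, Ssbp1, Cox17, Coa6, Ppargc1b and Hspe1 was called, and with total counts alone Ssbp1, Cox17 and Coa6 were not.

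**Figure D4:**
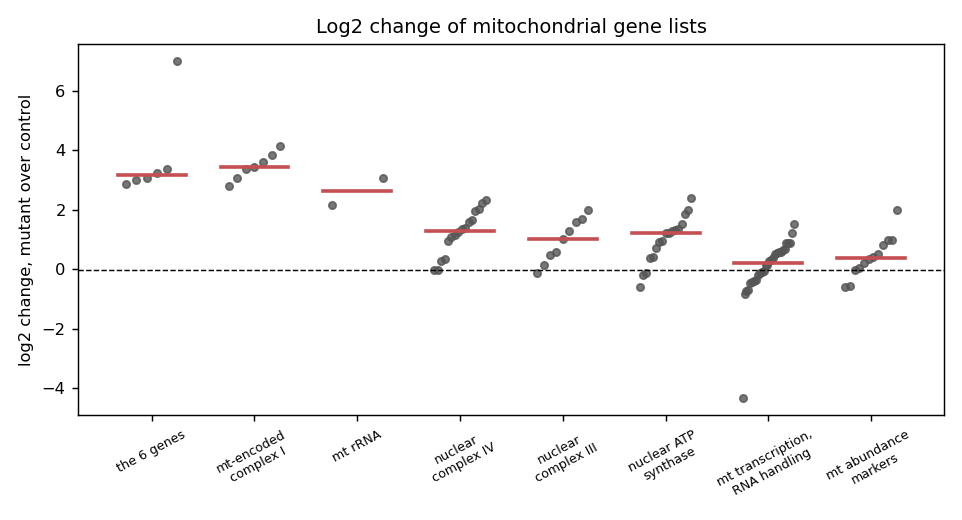
Log2 change of mutants over controls for each tested gene (grey points) in 8 lists of mitochondrial genes, with the list median in red and the median of all genes tested, -0.04, as a dashed line. The lists of genes encoded in the mitochondrion have medians of 2.61 to 3.42, the nuclear subunit lists 1.01 to 1.29, and the lists for RNA handling and mitochondrial mass 0.22 and 0.38.

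Transcript length moved with the difference. Among nuclear protein-coding genes the median log2 change was 1.81 for the 46 genes with a longest transcript of up to 500 bases, 0.91 for 488 genes of 500 to 1000 bases, 0.20 for 2163 genes of 1000 to 2000 bases and -0.14 for 5634 genes of 2000 to 4000 bases. It was also higher for AT-rich genes, at 0.59 for the 775 genes with up to 40% GC, and the 6 genes have 31.9% to 39.9% GC. For the 55 nuclear genes with both a length of up to 2000 bases and a GC content of up to 40% the median was 1.14. Each of the 6 exceeded these medians. With a trend over nuclear genes, fitted in each sample, entered in the model, their median log2 change was 1.16, with mt-Atp8 at 2.63 and the others at 0.81 to 1.54. The shortest nuclear gene in that trend had 216 bases, so mt-Atp8, at 204, lies just outside its range and was given the value at its edge. The part of length and GC content in the difference between the groups was not otherwise tested.

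**Figure D5:**
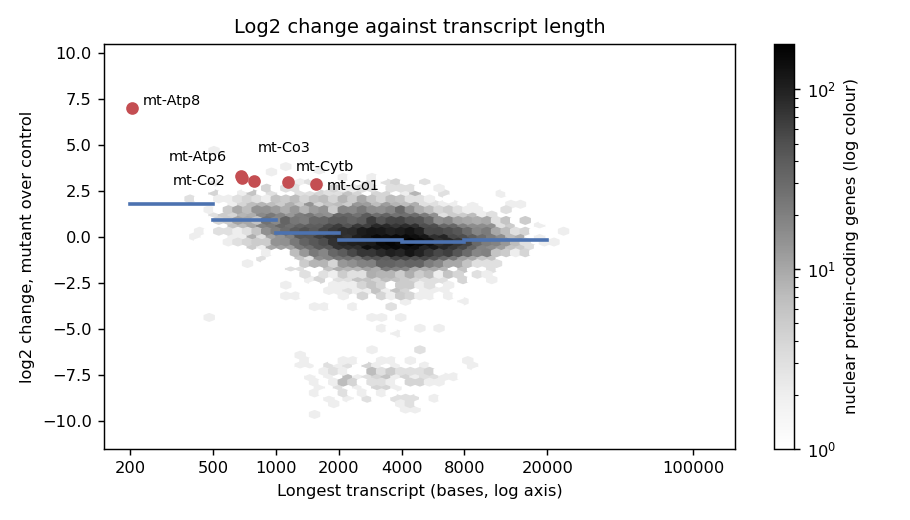
Log2 change against the longest transcript in bases (log axis) for nuclear protein-coding genes (grey hexagons, darker with more genes on a log scale) and the 6 mitochondrial genes (red). Blue lines mark the medians of length classes, which fall from 1.81 for genes of up to 500 bases to -0.26 for those of 4000 to 8000 bases, and the last line stands for all genes over 8000 bases.

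Skeletal muscle is rich in mitochondria, and its markers varied widely within both groups. The 15 muscle markers summed to 16.3, 3531 and 39.7 CPM in the controls and to 8346, 218 and 1315 CPM in the mutants, led by the muscle actin Acta1, and 0 of the 15 were called by edgeR or DESeq2 (0 also had an edgeR p below 0.05). This rested on control 2: without it 14 of the 15 were higher by p below 0.05 with over 1.5-fold change, with a median log2 change of 7.17 against 1.45 with all samples, and without mutant 1 the median was -0.62. The median log2 change of the 6 genes was 3.05 without control 2 and 2.90 without mutant 1. Neither fit is a test of muscle content, and the part of muscle in the median of the 6 genes was not tested. Red blood cell markers summed to 823, 834 and 380 CPM in the controls and 1289, 926 and 2560 CPM in the mutants, higher in every mutant. Hbb-bs was the most abundant, 1 of the 6 tested was called (Hba-a1, lower in the mutants), Hbb-bs and Hba-a2 were higher by the rule without adjustment, 1 or 2 of the 7 listed were at 0 in each mutant, and their part in the result was not tested. Hba-a1 kept its call in 1 of 6 fits with 1 sample left out (without mutant 1), and lost it with no filter on low counts and with the correction for length and GC content, and DESeq2 called 2 of the list higher and 1 lower. Enamel epithelium markers summed to 85381, 97003 and 119989 CPM in the controls and to 34052, 32548 and 71650 CPM in the mutants, lower in every mutant, with Amelx the most abundant and 0 of 5 called by edgeR, and their part was not tested. Amtn was higher by the rule without adjustment (log2 change 0.91), and DESeq2 called 1 of the 5 higher and 2 lower. Among all 15826 genes tested DESeq2 called 1109 higher and 500 lower. The odontoblast, macrophage, endothelial and Schwann cell lists had 0 genes called by edgeR, with 0 at an unadjusted p below 0.05, and 0 by DESeq2.

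Outside the mitochondrial genome, 5 genes followed the mean log2 level of the 6 most closely over the 6 samples. The first was Gm28661, the copy of mt-Co2, with a Pearson r of 0.9996, and the others were the processed pseudogenes Gm10080, Gm19810, Gm6063 and Rbm3-ps, with r of 0.998 or above. Of 15811 genes compared, 512 had an r over 0.95, and because the points fall into the 2 genotypes these correlations only describe these samples. Rbm3-ps, for example, was at 2.95, 1.58 and 2.21 CPM in the controls and at 46.3, 32.9 and 42.7 CPM in the mutants, and Gm19810 at 0.492, 0.0550 and 0.549 CPM against 32.3, 20.1 and 28.8 CPM.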

How the data were processed

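3 control and 3 mutant samples of the proximal incisor were profiled with single 75-base reads. Reads were trimmed and aligned to mm10 in Partek Flow by the authors, and the submitters' processing notes also name TopHat2 2.0.8. The counting model, strand setting and annotation are not given in the sources used here. The deposited table holds the authors' estimated counts per gene, not scaled, for 19060 genes that passed their filter, and many values are fractional. A deposited table of the authors' own fold changes and p-values was not used.

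Counts were rounded to whole numbers and scaled by the upper quartile as in the study. The filter (filterByExpr) asked for 15 counts in total and, in enough samples, for a CPM equal to 10 counts at the median library size. In the shallower mutant libraries that CPM can be reached with fewer than 10 counts. Genes that passed were tested for genotype by the edgeR 4.0.16 quasi-likelihood test (R 4.3.3), two-sided. Benjamini-Hochberg adjustment ran over the 15826 genes tested, and the procedure was tested on simulated data. A gene was called at an adjusted p below 0.05, and p below 0.05 with over 1.5-fold change is given as a second rule. CPM and shares come from the unrounded counts. Likeness was Pearson's r of log2(CPM + 1). Lengths, GC content, positions and sequences come from GENCODE M21 (mm10), where 18637 of the genes had an annotated transcript. No genome sequence was used, so nuclear copies were sought among annotated transcripts with BLAST 2.17.0 (at least 95% identity over 100 bases), in place of the whole genome as planned. For the correction, the log2 level in each sample, relative to the gene's mean over the samples, was fitted as a smooth trend of length and GC content. Nuclear protein-coding genes of mean count 50 or more were used, and the trend entered the edgeR fit as an offset.

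All 6 members, every copy of a member in the table, the 2 genes of smallest p in each direction and the most abundant gene of each list, and the 5 genes most like the members were eligible to be named. The members and lists were chosen with earlier results of these data known. Alternatives were TMM scaling, total counts, scaling without mitochondrial genes, no filter, DESeq2 1.42.0, a replicate block, the length and GC correction, each sample left out, and, added after seeing the data, genes summed with their copies.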

Additional observations from a re-analysis of the deposited data

How the results depend on the processing

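The direction of the 6 genes held under every alternative run, and their median log2 change was 2.90 to 3.36 with any 1 sample left out and 1.16 to 3.18 otherwise. The low value came from the correction for length and GC content, which took mt-Co1 to 1.54, mt-Co2 to 0.94, mt-Co3 to 1.07, mt-Cytb to 1.25, mt-Atp6 to 0.81 and mt-Atp8 to 2.63. Of all genes tested 1074 were called, 229 with no filter on low counts, 145 with the length and GC correction, 3137 by p below 0.05 with over 1.5-fold change, and 76 to 606 with 1 sample left out. Higher and lower calls were 589 and 485, against 527 and 533 with TMM, 466 and 671 with total counts, 1109 and 500 with DESeq2, 210 and 19 with no filter and 113 and 32 with the correction, and 2 to 135 were lower with 1 sample left out. TMM scaling moved the median of all genes to -0.13 and total counts to -0.30. For nuclear complex IV, complex III and ATP synthase, in that order, 3, 2 and 5 genes were called. With no filter there were 1, 1 and 1, with DESeq2 8, 5 and 10, with the length and GC correction 1, 0 and 0, by the rule without adjustment 10, 5 and 12, and 0 to 1 of each with 1 sample left out. Of the complex I genes 0 were called with the length and GC correction and 3 to 7 with 1 sample left out. Of the transcription and RNA handling genes 0 were called with no filter, 0 with the correction, 2 with DESeq2, 5 by the rule without adjustment and 0 to 1 with 1 sample left out. The causes of these shifts were not tested, and the fits with 1 sample left out also held fewer samples.

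Deviations of samples of the same number were hardly correlated (0.047, 0.0094 and 0.055 for replicates 1, 2 and 3). Only this matching was examined, and low counts in the mutants add noise to it, so it cannot exclude a pairing. The study's methods mention 3 pairs of samples without saying which samples were paired. With the replicate number as a block, 508 genes were called in all, 432 higher and 76 lower, and 5, 4 and 8 for complex IV, complex III and ATP synthase. The block also ended the calls of Ssbp1 and Ppargc1b.

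A level of 3 counts amounts to 0.0825 to 0.0874 CPM in controls and 0.256 to 0.655 CPM in mutants, so genes of low level could not be resolved in the mutants. Estimated counts of genes with identical nuclear copies cannot be told apart from those of the copies. The analysis rests on 3 samples per group whose depth differs with genotype.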
